A study of Mus musculus with 6 samples.

Results

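Genes for plasma proteins of the liver were examined in endothelial cells (ECs) sorted from mouse liver. The group was given as a list of 48 gene symbols out of the 24421 in the count table, given by name, with no threshold on their values. It holds 11 carriers and binding proteins, 9 apolipoproteins, 11 clotting factors, 7 anticoagulants and genes of fibrinolysis, and 10 protease inhibitors. The study compared ECs of wild-type (WT) C57BL/6J mice at 10 weeks of age (young, n = 3) with those of mice aged 127, 131 and 136 weeks (aged, n = 3, 1 sample at each age) by RNA-seq of 75-base single-end reads. All mice were female according to the methods. The labels name no transgene or treatment. Each library came from 50000 cells sorted as CD31+CD45-. The methods describe the samples of each age as independent. The question here is how transcripts of these secreted proteins differ between the ages in sorted ECs, and which genes leave the path of the rest.

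Hepatocytes, the parenchymal cells of the liver, make most plasma proteins and release them into the sinusoids, whose walls are formed by the liver ECs. Their transcripts are among the most abundant of the liver, so that small amounts of RNA from broken hepatocytes or of hepatocytes sorted along can appear in libraries of other liver cells. Albumin and the carriers transport hormones, metals and lipids, apolipoproteins build lipoprotein particles, and the clotting factors and the serpins that restrain them circulate as precursors and inhibitors.

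Endothelial markers were present in all 6 libraries, and several were lower in the aged ones. Pecam1, which encodes CD31, had 452 ± 44.6 FPKM in young and 454 ± 45.3 FPKM in aged ECs (SD, n = 3 each), where FPKM is the abundance per length of the transcript and per depth of the library. Kdr, the main VEGF receptor of ECs, had 640 ± 38.7 and 405 ± 124 FPKM. The sinusoidal scavenger receptor Stab2 had 366 ± 18.2 FPKM in young and 112 ± 85.4 FPKM in aged ECs. All 12 endothelial markers passed the filter on low counts, with 9 lower and 3 higher in aged ECs (median log2 fold change -0.36), and 6 were lower without overlap. Their sums, 26255 to 30245 CPM in the young and 15302 to 21971 CPM in the aged samples, did not overlap either. The total counts were 23001556 to 31651817 per library, and 3 counts, taken as the floor, were 0.0948 to 0.130 CPM (counts relative to the size of the library, after scaling by TMM). Several libraries stood apart. Lars2 and Rn45s, which collect ribosomal RNA reads, took 0.960% of the counts in the 127-week sample and 1.29% in young replicate 3, against 4.68 to 5.53% in the other 4. Leukocyte markers summed to 455 CPM in the 136-week and 179 CPM in the 127-week sample, and to 29.8 to 77.4 CPM in the other 4. Young replicate 3 also differed from the other young samples in its hepatocyte genes, and the main counts are also given without it.

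Of the 48 genes, 45 reached 0.5 CPM in at least 1 library and were tested, among 14612 genes in all. The clotting factor genes F7, F9 and F11 did not, with 0 to 14 counts in any library. Per length, all 48 genes were below Pecam1 and Kdr. The 5 highest in young ECs were Trf, encoding the iron carrier transferrin, at 64.4 ± 12.4 FPKM, Apoc1 at 54.4 ± 33.4, Apoa2 at 45.9 ± 20.8, Alb, encoding albumin, at 30.8 ± 9.52, and Apoa1 at 27.4 ± 12.8 FPKM (SD, n = 3 each). Serpina1e followed at 24.7 ± 1.43 FPKM. Neighbours in this order differed by less than the larger of their SDs. In all, 15 of the 48 genes reached 10 FPKM in young ECs, 22 lay between 1 and 10, and 11 were below 1 FPKM. Together the tested genes took 0.0314 to 0.0598% of the counts of a library, of which Trf alone made up 19.4 to 50.7%.

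In aged ECs most of these transcripts were less abundant. Of the 45 tested genes, 40 were lower in aged than in young ECs, whereas 48.9% of all genes were lower. Their median log2 fold change (aged over young, from edgeR's quasi-likelihood fit) was -0.86, and that of all genes was 0.0098. The tested genes summed to 593, 449 and 596 CPM in young replicates 1, 2 and 3 and to 447, 322 and 479 CPM in the 127-, 131- and 136-week samples, and these sums overlapped. Without Trf, the most abundant member, which was left out after its values were seen, they summed to 421, 313 and 480 CPM in the young and to 263, 217 and 236 CPM in the aged samples, which did not overlap. In bulk RNA, fewer cells of a type and less RNA per cell cannot be told apart. For 19 genes every aged CPM lay below every young CPM (8.33% of all genes did so), and for 1 gene, Itih2, every aged CPM lay above (9.62% of all genes).

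**Figure D1:**
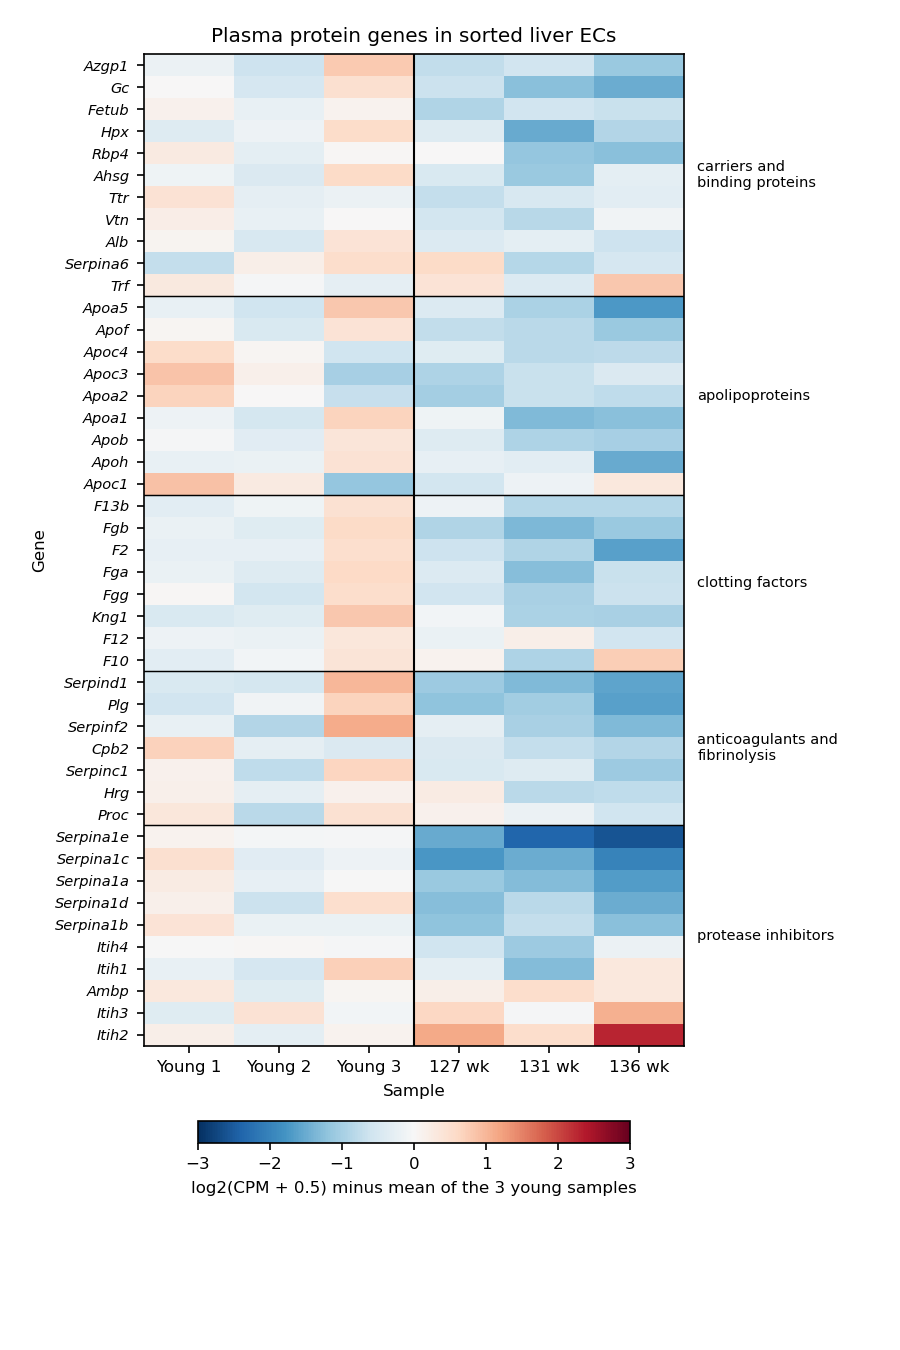
Heat map of the 45 tested genes (rows, grouped by role) in the 6 samples (columns). Colour gives log2(CPM + 0.5) minus the mean of the 3 young samples, with blue for lower and red for higher. Most rows are blue in the aged columns, Serpina1e and Serpina1c the deepest, while Itih2 and Ambp are red in all 3 and Itih3 in the 127- and 136-week columns.

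No single gene passed the threshold of the main test. With edgeR's quasi-likelihood test and Benjamini-Hochberg adjustment over all 14612 genes, 0 of the 45 genes were called, which asked for a log2 fold change beyond 1 at an adjusted p below 0.05, as 0% of all genes were. The smallest adjusted p was 0.177 among these genes and 0.0735 among all. At an unadjusted p below 0.05 in edgeR, 16 genes were lower and 1 was higher, where 4.32% of all genes were lower and 8.32% higher. Adding a log2 fold change below -1 left 11 genes, against 1.19% of all genes, and above 1 left Itih2, against 5.43%. DESeq2 called 9 of these genes lower (0.541% of all genes) and 1 higher (2.7%), while limma on log2 FPKM and limma-voom called 0. The 9 genes were the 5 Serpina1 genes, Serpind1, Plg, Fgb and Gc, and the 1 was Itih2.

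**Figure D2:**
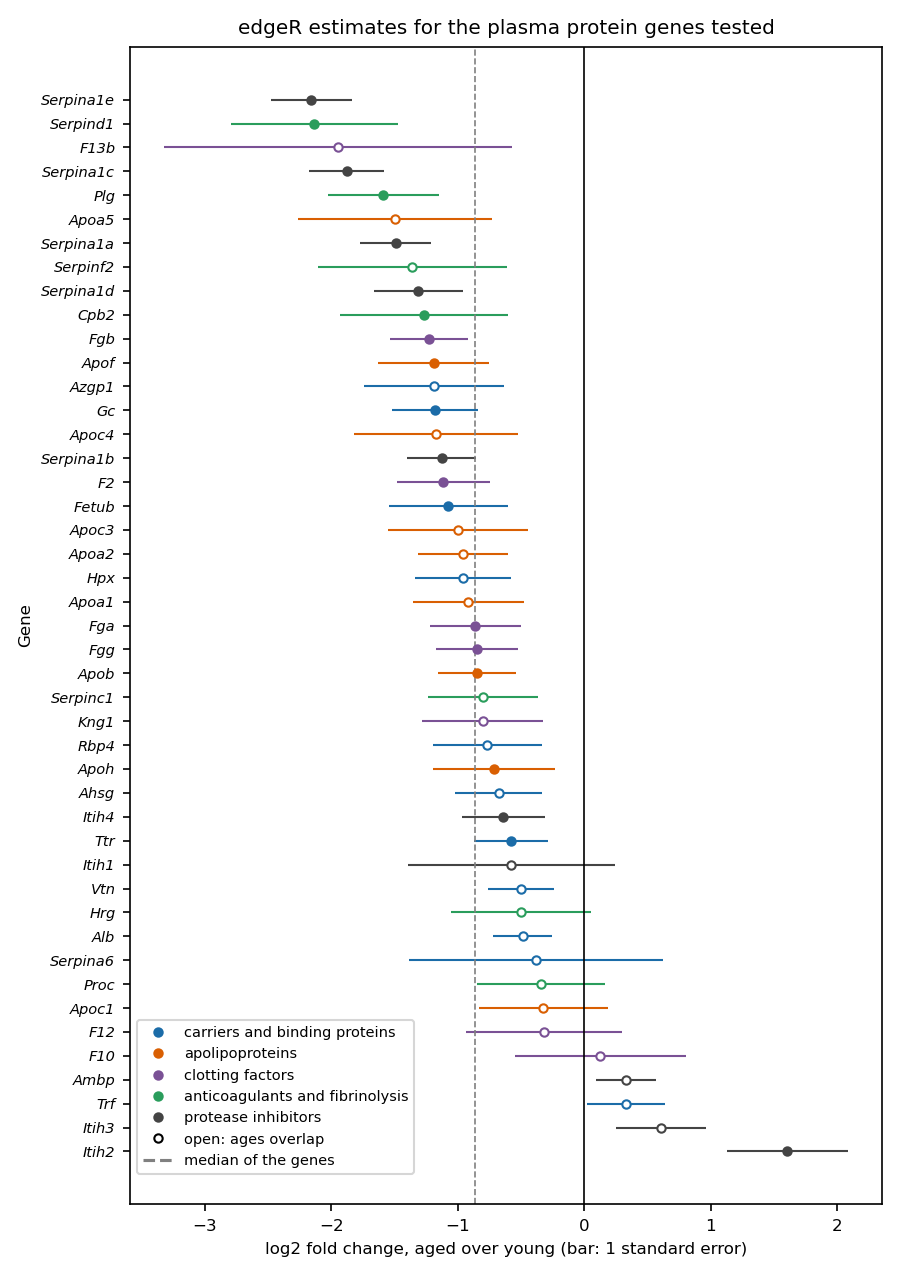
log2 fold change (aged over young) of each tested gene with its standard error, from edgeR and sorted by size. Filled points mark genes whose CPM does not overlap between the ages. The dashed line is the median of -0.86, and 5 genes, Itih2, Itih3, Trf, Ambp and F10, lie to the right of 0.

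The protease inhibitors held both ends of this range. Of 10 genes, 7 were lower and 3 higher in the aged samples (median log2 fold change -0.88). The Serpina1 genes encode the mouse forms of alpha-1-antitrypsin, the main inhibitor of neutrophil elastase in plasma. They lie side by side on chromosome 12, from Serpina1b (mm9 chr12:104966366-104976368) through Serpina1d (chr12:105001804-105011802), Serpina1a (chr12:105091799-105104137) and Serpina1c (chr12:105133136-105143097) to Serpina1e (chr12:105185141-105197185), all on the minus strand. Serpina1e had 31.7, 28.3 and 28.7 CPM in the young samples and 10.1, 5.29 and 4.51 CPM in the 127-, 131- and 136-week samples. This was the lowest log2 fold change of the 45 genes, at -2.16 (standard error 0.32, edgeR adjusted p = 0.177). The young samples lay close together and all aged samples were far below them, the oldest lowest. The DESeq2 adjusted p of Serpina1e was 1.14e-07, and over all alternatives it ran from there to 0.776, in the fit with a term for hepatocyte RNA.

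Serpina1c had 23.3, 12.8 and 14.8 CPM in the young and 4.57, 5.52 and 3.74 CPM in the aged samples, a log2 fold change of -1.88 (standard error 0.30, edgeR adjusted p = 0.18). Serpina1a had 10.7, 7.49 and 8.89 CPM in the young and 3.85, 3.34 and 2.44 CPM in the aged samples. Its log2 fold change was -1.49 (standard error 0.28, edgeR adjusted p = 0.193). In both genes each aged sample was below each young one. Serpina1d, with 14.5, 8.21 and 18.6 CPM in the young and 5.12, 7.27 and 4.30 CPM in the aged samples, had a log2 fold change of -1.31 (edgeR adjusted p = 0.256). Serpina1b, with 18.8, 12.3 and 12.1 CPM against 5.78, 8.32 and 5.64 CPM, had a log2 fold change of -1.13 (edgeR adjusted p = 0.235). Neither of them overlapped between the ages, so that the 5 copies pointed the same way.

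The copies share sequence, and a read may be placed in more than 1 of them. Of the 75-base stretches of the longest transcript, 64.6% in Serpina1c, 46.1% in Serpina1a, 34.2% in Serpina1d, 31.1% in Serpina1b and 19.9% in Serpina1e were found unchanged in another copy. The value of a single copy is therefore uncertain, which holds least for Serpina1e. The 5 genes summed to 99.0, 69.1 and 83.2 CPM in the young and 29.4, 29.7 and 20.6 CPM in the aged samples. As 1 gene, they had a log2 fold change of -1.66 (standard error 0.21, edgeR adjusted p = 0.122). Of the exon bases of Serpina1c, 31.5% also lie under B430119L08Rik.

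The promoters of the 5 copies are also related. Those of Serpina1e and Serpina1c are shown because these copies had the lowest fold changes of the 5. They matched at 95.2% of 249 aligned bases, and among all pairs of the 5 the identity was 64.8 to 95.9%. Each sequence is from RefSeq on GRCm38.p6, read 5′ to 3′ on the gene's strand from 250 bases before to 50 after the start site. Serpina1e lies at chr12:103956848-103957147 and Serpina1c at chr12:103904901-103905200, both on the minus strand, and capitals mark the longest run of 75 bases that both hold.
Serpina1e: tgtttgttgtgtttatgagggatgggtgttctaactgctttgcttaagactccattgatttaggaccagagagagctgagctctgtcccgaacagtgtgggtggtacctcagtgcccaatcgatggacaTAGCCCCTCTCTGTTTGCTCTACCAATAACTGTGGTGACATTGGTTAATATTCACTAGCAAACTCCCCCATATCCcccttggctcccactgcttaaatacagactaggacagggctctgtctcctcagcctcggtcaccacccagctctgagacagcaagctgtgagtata
Serpina1c: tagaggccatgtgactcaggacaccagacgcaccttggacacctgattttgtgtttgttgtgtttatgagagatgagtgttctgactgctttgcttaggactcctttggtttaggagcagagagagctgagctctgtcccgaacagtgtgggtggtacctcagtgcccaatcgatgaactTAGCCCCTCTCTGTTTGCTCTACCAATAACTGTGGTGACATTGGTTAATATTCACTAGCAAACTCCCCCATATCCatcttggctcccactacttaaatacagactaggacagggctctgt
The shared run begins 121 bases before the annotated start of Serpina1e and 70 before that of Serpina1c.

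The inter-alpha-trypsin inhibitor family had log2 fold changes of both signs. The heavy chains of Itih1 to Itih3 are transferred to hyaluronan in tissues, Itih4 encodes a related plasma protein, and Ambp encodes the light chain bikunin, which holds the inhibitory domains. Itih2 (mm9 chr2:10016218-10053023) had 4.17, 2.89 and 3.94 CPM in the young and 8.53, 5.44 and 19.6 CPM in the aged samples. Its log2 fold change was 1.61 (standard error 0.48, edgeR adjusted p = 0.278), the highest of the 45 genes. Every aged sample lay above every young one, the 136-week sample by far the most. Without that sample the log2 fold change was 0.93. DESeq2 gave an adjusted p of 0.0359, and the range over all alternatives went up to 0.911.

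Itih3 had 5.58, 10.2 and 6.91 CPM in the young and 11.5, 7.16 and 15.8 CPM in the aged samples, a log2 fold change of 0.61 (standard error 0.36, edgeR adjusted p = 0.543). The 131-week sample lay among the young ones. Ambp had 15.2, 9.20 and 12.5 CPM in the young and 13.8, 17.7 and 15.1 CPM in the aged samples, a log2 fold change of 0.33 (standard error 0.24, edgeR adjusted p = 0.622). The ages overlapped. Itih1 and Itih4, neighbours of Itih3 on chromosome 14, had log2 fold changes of -0.57 and -0.64 (standard errors 0.82 and 0.33, edgeR adjusted p = 0.838 and 0.479). Itih1 lay at 0.096 without young replicate 3, at -1.29 without the 136-week sample and at -2.07 with a term for leukocyte RNA. No gene of the family passed the adjusted threshold in this edgeR comparison of the ages, and differences between its genes were not tested.

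Some markers of other cells were, like Itih2 and Itih3, highest in the 136-week and 127-week samples. Lyz2, of myeloid cells, had 30.4, 15.2 and 31.0 CPM in the young and 103, 19.4 and 327 CPM in the aged samples. Ptprc, which encodes CD45, had 1.56, 1.17 and 1.70 CPM in the young and 7.56, 1.28 and 25.6 CPM in the aged samples. Both were highest in the 136-week and next highest in the 127-week sample, as Itih2 was. In the 131-week sample, where Itih2 lay above every young sample, the leukocyte markers summed to 29.8 CPM, the lowest of all 6 libraries. Of the 10 leukocyte markers, 9 were higher in aged ECs, 5 of them by over 1 on the log2 scale with an unadjusted edgeR p below 0.05, and Cd3e was at 0 in young replicate 3. The 8 stellate and mural markers summed to 404, 339 and 127 CPM in the young and 450, 221 and 692 CPM in the aged samples. Reln alone had 155, 181 and 69.9 CPM in the young and 351, 109 and 495 CPM in the aged samples. By estimate 5 of the 8 were higher in aged ECs, with Des at 0.00017, and 3 were lower (median log2 fold change 0.11). With a term for leukocyte RNA in the edgeR fit, Itih2 had a log2 fold change of 0.80 (adjusted p = 0.635) and Itih3 of 0.19 (adjusted p = 0.999). The 5 cholangiocyte markers, all higher in aged ECs by estimate, summed to 105, 88.1 and 103 CPM in the young and 190, 189 and 237 CPM in the aged samples. Spp1 alone had 80.6, 77.4 and 96.2 CPM in the young and 170, 161 and 206 CPM in the aged samples. Of the 5 markers, 2 were higher without overlap (9.62% of all genes). The part of the stellate, mural and bile duct cells in the result was not tested.

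**Figure D3:**
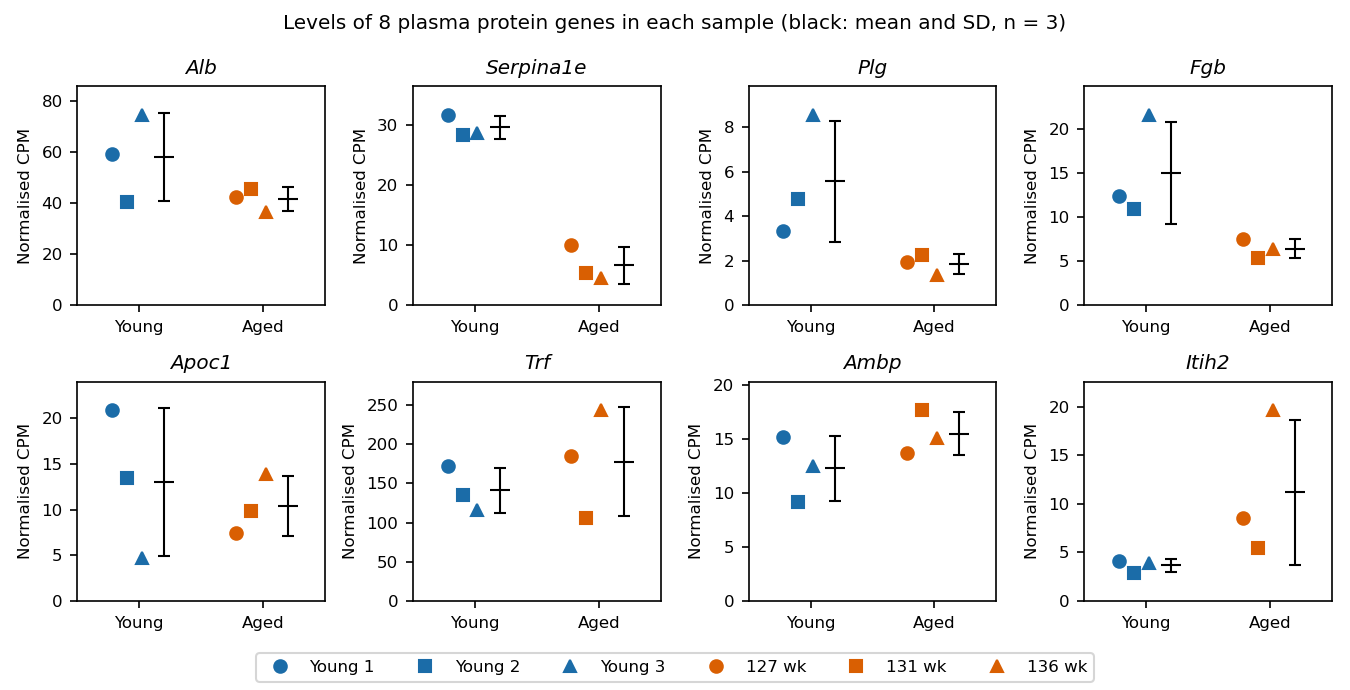
Normalised CPM of 8 genes in the 3 young (blue) and 3 aged (orange) samples, with the mean and SD of each age in black. Serpina1e, Plg and Fgb do not overlap between the ages and are lower in the aged samples, Itih2 does not overlap and is higher, and Alb, Apoc1, Trf and Ambp overlap.

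Among the carriers and binding proteins, 10 of 11 were lower in aged ECs (median log2 fold change -0.68). Alb, the main protein of plasma, had 59.2, 40.2 and 74.7 CPM in the young and 42.3, 45.7 and 36.5 CPM in the aged samples, a log2 fold change of -0.48 (standard error 0.23, edgeR adjusted p = 0.449). Young replicate 2 lay below 2 of the aged samples, so the ages overlapped. Gc, encoding the vitamin D binding protein, had 18.7, 13.04 and 26.4 CPM in the young and 11.8, 7.51 and 6.33 CPM in the aged samples. Its log2 fold change was -1.18 (standard error 0.34, edgeR adjusted p = 0.264, DESeq2 adjusted p = 0.0324, up to 0.905 over all alternatives). Its ages did not overlap, though they did on total counts without TMM. Of the others, Ttr (transthyretin, carrier of thyroxine) and Fetub (fetuin-B) also did not overlap, at -0.58 and -1.07. Hpx, which binds free heme, and Azgp1 lay at -0.96 and -1.19 with overlap, and Ahsg, Rbp4, Vtn and Serpina6 at -0.68, -0.76, -0.50 and -0.38.

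Trf was the exception among the carriers. It had 172, 135 and 116 CPM in the young and 185, 105 and 243 CPM in the aged samples, a log2 fold change of 0.33 (standard error 0.31, edgeR adjusted p = 0.724). The 131-week sample was the lowest of all and the 136-week sample the highest, so the aged samples enclosed the young ones. With a term for leukocyte RNA the log2 fold change was -0.16. In the annotation of mm9, 21.0% of the exon bases of Trf lie under Srprb, a subunit of the receptor for the signal recognition particle, and 27.6% of its 75-base stretches are shared with it. Srprb itself had a log2 fold change of -0.097 (edgeR adjusted p = 0.820). How much of the reads of Trf came from Srprb was not tested.

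All 9 apolipoprotein genes were lower in aged ECs, and their median log2 fold change was -0.96. With a term for hepatocyte RNA in the edgeR fit, Apoa2, Apoc1, Apoc3 and Apoc4 turned to 0.061, 1.11, 0.55 and 0.26. The estimates of Apoa1, Apoa5, Apob, Apof and Apoh stayed negative in that fit, at -1.30, -1.9, -1.02, -1.36 and -0.83. Apoa1, of high-density lipoprotein, had 18.5, 14.2 and 33.1 CPM in the young and 18.7, 7.86 and 8.32 CPM in the aged samples, a log2 fold change of -0.92 (standard error 0.44, edgeR adjusted p = 0.45). The 127-week sample lay among the young ones. Apoa2, of the same particles, had 21.9, 13.7 and 8.26 CPM in the young and 6.40, 8.36 and 7.80 CPM in the aged samples, a log2 fold change of -0.96 (standard error 0.36, edgeR adjusted p = 0.351). Here young replicate 3 lay among the aged samples. Apoc1 had 20.8, 13.4 and 4.67 CPM in the young and 7.39, 9.88 and 13.8 CPM in the aged samples, a log2 fold change of -0.32 (standard error 0.51, edgeR adjusted p = 0.86). Young replicate 3 was the lowest of all 6 samples, and without young replicate 1 the sign turned, to 0.20. Apob, the scaffold of very low density lipoprotein, Apof and Apoh did not overlap between the ages, at -0.84, -1.19 and -0.71. On total counts without TMM Apob and Apoh overlapped. Apoa5, Apoc3 and Apoc4 overlapped, at -1.49, -0.996 and -1.17, and 9.74% of the 75-base stretches of Apoc4 are shared with Apoc2.

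Of the 11 clotting factor genes 8 were tested and 7 were lower in aged ECs (median log2 fold change -0.85). The 3 chains of fibrinogen, the precursor of fibrin, lie together on chromosome 3. Fgb had 12.4, 10.96 and 21.6 CPM in the young and 7.46, 5.33 and 6.42 CPM in the aged samples, a log2 fold change of -1.23 (standard error 0.31, edgeR adjusted p = 0.243, DESeq2 adjusted p = 0.0135, up to 0.738 over all alternatives). Fga and Fgg had log2 fold changes of -0.86 and -0.85, and none of the 3 overlapped between the ages. On total counts without TMM Fga and Fgg overlapped, and Fgb did not. Fga was at 0.880, 0.872 and 0.901 times the counts of Fgb in the young and at 1.25, 0.920 and 1.21 times in the aged samples. Fgg was at 0.751, 0.551 and 0.612 times in the young and at 0.793, 0.825 and 0.873 times in the aged samples. Both ratios were higher in every aged than in every young sample, and the difference was not tested. F2, encoding prothrombin, did not overlap either, at -1.11 (edgeR adjusted p = 0.317). Kng1, the kininogen, lay at -0.80, and 10.6% of its 75-base stretches are shared with Kng2.

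F10, encoding factor X, was the only clotting factor with a positive estimate, at 0.13 (standard error 0.68, edgeR adjusted p = 0.965). It had 0.930, 1.17 and 1.83 CPM in the young and 1.41, 0.428 and 2.48 CPM in the aged samples, which enclosed the young ones. Its sign turned under 6 of the alternatives. F12 lay at -0.32. F13b, the carrier subunit of factor XIII, had 6, 7 and 23 counts in the young and 9, 0 and 0 counts in the aged samples. Its fitted log2 fold change of -1.94 (standard error 1.38, edgeR adjusted p = 0.62) rests on these few counts and depends on how the zeros are treated.

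All 7 genes of the anticoagulants and of fibrinolysis were lower in aged ECs, with the lowest median of the 5 roles, at -1.27. Plg encodes plasminogen, which dissolves fibrin once activated. It had 3.35, 4.78 and 8.58 CPM in the young and 1.96, 2.26 and 1.34 CPM in the aged samples, a log2 fold change of -1.59 (standard error 0.44, edgeR adjusted p = 0.256, DESeq2 adjusted p = 0.0243, up to 0.776 over all alternatives). The ages did not overlap, and young replicate 3 was the highest. Serpind1 (heparin cofactor II), with 1.45, 1.35 and 4.89 CPM in the young and 0.756, 0.583 and 0.406 CPM in the aged samples, lay at -2.13 (standard error 0.66, edgeR adjusted p = 0.294). Young replicate 3 was far above all others, and without it the gene lay at -1.26. Cpb2, which slows fibrinolysis, had 1.93, 0.767 and 0.631 CPM in the young and 0.619, 0.428 and 0.325 CPM in the aged samples. At -1.27 it did not overlap, but it did on total counts without TMM. Its estimate turned to 0.10 with a term for hepatocyte RNA. The ages overlapped in Serpinc1 (antithrombin), Proc (protein C), Serpinf2 (antiplasmin) and Hrg, at -0.80, -0.34, -1.36 and -0.50.

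The direction was similar in both kinds of library. In the 4 libraries with many Lars2 and Rn45s counts 40 of the 45 genes were lower in the aged samples, with a median log2 difference of -0.68 (48.7% of all genes were lower), and in the pair with few such counts 36 were lower, with a median of -0.81 (48.9%). In 35 genes the aged samples were lower in both, as in 32.1% of all genes. The 136-week sample was the lowest of all 6 in 21 genes and the 131-week sample in 15, and young replicate 3 was the highest in 24. Without young replicate 3, 37 genes were lower and the median was -0.63. Without young replicate 2 or without the 127-week sample, 18 genes in place of 11 had a log2 fold change below -1 with an unadjusted p below 0.05, against 165 and 163 of all 14612 genes (174 with all samples). A left-out sample also moved single genes by over 1.5 times. Without young replicate 3, Azgp1 lay at -0.56, Apoa5 at -0.82 and Serpinf2 at -0.39. Without the 127-week sample, Rbp4 lay at -1.36, Serpina6 at -1.75, Apoa5 at -2.15 and Hrg at -1.15, and without young replicate 1 Cpb2 lay at -0.60.

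Hepatocyte genes outside the group were compared next. Of 40 intracellular hepatocyte genes (enzymes of the urea cycle, gluconeogenesis and amino acid breakdown, cytochromes P450 and transporters), 37 were tested and 36 were lower in aged ECs (median log2 fold change -1.13). Of 32 further secreted proteins of hepatocytes 26 were tested and 24 were lower, with a median of -0.78. The intracellular genes summed to 332, 222 and 155 CPM in the young and 131, 145 and 92.6 CPM in the aged samples, and the further secreted ones to 140, 137 and 222 CPM and to 100, 62.6 and 80.2 CPM. Neither sum overlapped between the ages. Within the kinds of library, the intracellular genes had a median of -1.24 in those with many Lars2 and Rn45s counts and of -0.17 in the pair with few.

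**Figure D4:**
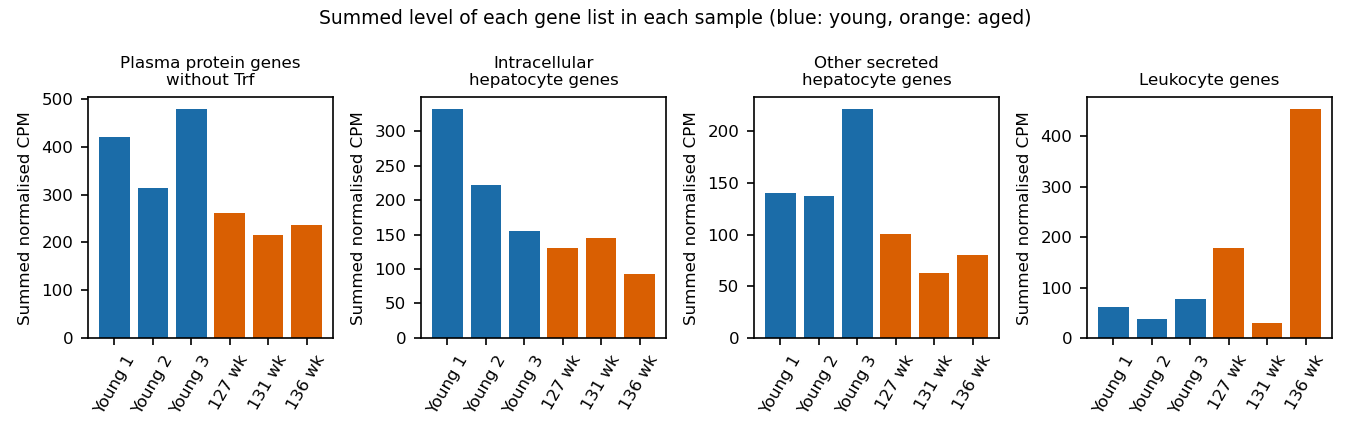
Summed normalised CPM of 4 gene lists in the 3 young (blue) and 3 aged (orange) samples. The plasma protein genes without Trf and both other hepatocyte lists are lower in every aged than in every young sample, whereas with Trf the plasma protein sums overlap (479 CPM in the 136-week sample, 449 CPM in young replicate 2). The young samples come in a different order for the intracellular list than for the secreted genes, and the leukocyte genes are highest in the 136-week sample, at 455 CPM.

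To see which genes left the path of the other hepatocyte transcripts, each count was divided by the summed counts of the intracellular hepatocyte genes in the same sample. If all came with hepatocyte RNA of a fixed make-up, these ratios would not differ between the ages. The reference sum itself differed by -0.90 on the log2 scale between aged and young ECs, and over all genes the median difference of the log2 ratios was 0.91. Of the 45 genes 25 were above 0, where 14042 of all 14612 genes were. The median of the 45 genes was 0.058, but its sign depended on the reference and the samples. It was -0.45 against the other plasma protein genes, -0.40 against Alb, -0.29 without young replicate 1 and 0.51 without young replicate 3. The ratios did not overlap between the ages in 6 genes, a pattern found in 42% of all genes. Serpina1e, Serpina1c and Serpina1a were lower in the aged samples, with differences of -1.35, -0.94 and -0.60 in the log2 ratio, and Itih2, Itih3 and Ambp were higher, with 2.32, 1.48 and 1.26. Trf (1.17) and F13b (-2.06) differed by more than 1 but overlapped.

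The ratio was tested by fitting edgeR with the reference sum as the library size. Of the 45 genes 2 were called, against 13.1% of all genes, and 5 had an unadjusted p below 0.05, against 30.9% of all genes. Itih2 had an adjusted p of 0.000134 and Itih3 of 0.0374. Trf had an adjusted p of 0.0538, Serpina1e of 0.0646 and Ambp of 0.0956. A gene whose share of all RNA stays the same has a positive value in this fit, as the median over all genes shows, so the calls of Itih2 and Itih3 say only that they did not follow the hepatocyte reference. The number of genes without overlap depended on the reference. It was 7 with the further secreted proteins (65.4% of all genes), 10 with the other plasma protein genes (22.4%) and 13 with Alb (17%). With the intracellular reference it was 16 without young replicate 3, where 80.3% of all genes did not overlap either.

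The hepatocyte transcripts did not keep the same proportions within 1 age. In young replicate 3, 32 of the 45 plasma protein genes were higher than the mean of young replicates 1 and 2, with a median log2 difference of 0.58, and 48.5% of all genes were higher. Of the 37 intracellular hepatocyte genes 8 were higher, with a median of -0.92, and of the 26 further secreted ones 20 were, with a median of 0.52. Alb was at 1.33 and 1.56 times the counts of Bhmt, a hepatocyte enzyme of methionine synthesis, in young replicates 1 and 2, and at 16.8 times in young replicate 3. In the aged samples it was at 3.33, 3.29 and 3.88 times. Within the intracellular list, Cps1, the first enzyme of the urea cycle, lay 3.34 lower on the log2 scale in young replicate 3, while the transporter Slc10a1 and Aadac lay 1.11 and 1.24 higher.

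The split also ran through the plasma protein genes themselves. The lowest in young replicate 3 were Apoc1 at -1.77, Apoc3 at -1.55, Apoa2 at -1.06, Apoc4 at -0.92 and Cpb2 at -0.71, and the highest were Serpinf2 at 1.63, Serpind1 at 1.502 and Kng1 at 1.20. Apoa1 and Apoc3 lie within the same apolipoprotein cluster on chromosome 9 (mm9 chr9:46036663-46038549 and chr9:46041016-46043719), yet Apoa1 was at 2.72 and 3.57 times the counts of Apoc3 in young replicates 1 and 2 and at 21.9 times in young replicate 3. In the aged samples it was at 11.6, 3.81 and 3.36 times. Apoc1 and Apoc3, on different chromosomes, were closer in proportion within each age, with Apoc1 at 3.06, 3.39 and 3.08 times Apoc3 in the young and at 4.57, 4.79 and 5.59 times in the aged samples, which did not overlap. The 3 tested genes with at most 700 exon bases, Apoc1, Apoa2 and Apoc4, had a median of -1.06 in young replicate 3, against -0.50 (lower quartile -1.08) over the 59 genes of that length with a mean of 0.828 to 11.7 CPM, these 3 included. Stellate and mural markers were lower in young replicate 3 as well, with 8 of 8 below and a median of -1.20. These patterns were noticed in the data, and what lies behind them was not tested.

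**Figure D5:**
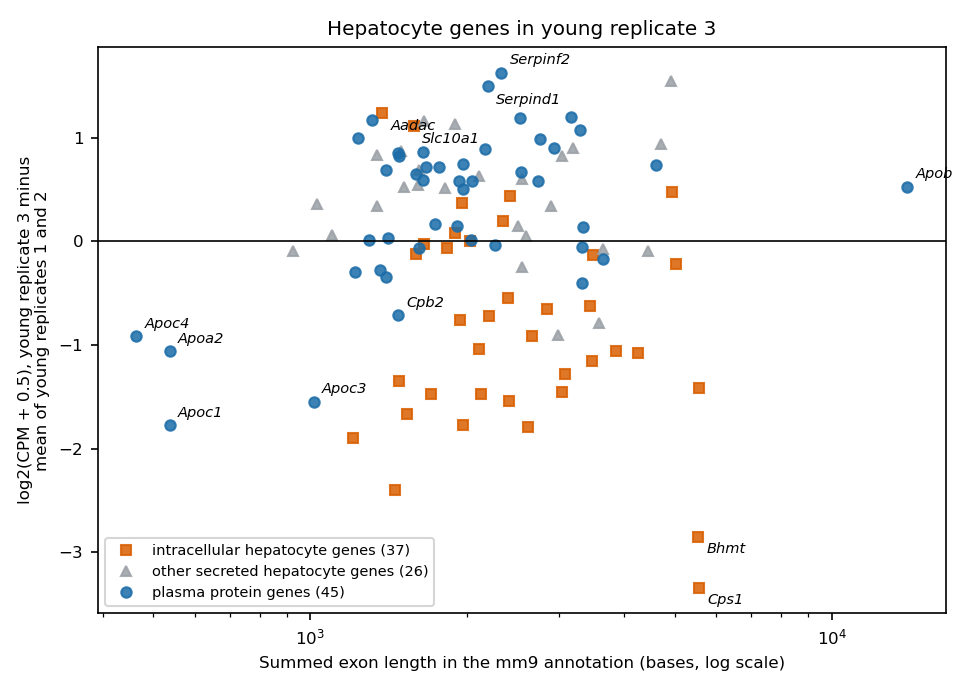
log2(CPM + 0.5) in young replicate 3 minus the mean of young replicates 1 and 2, against the summed exon length on a log scale, for 45 plasma protein genes, 37 intracellular and 26 further secreted hepatocyte genes. Most plasma protein genes lie above 0 and most intracellular ones below, with Cps1 at -3.34, while the short Apoc1, Apoa2 and Apoc4 lie below 0.

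Promoters of the genes were searched for 3 motifs, on both strands, in the RefSeq sequences of GRCm38.p6 from 250 bases before to 50 after the start, which were held for 39 of the 48 genes. A 10-base motif of HNF1, a homeobox factor of hepatocytes, was in 2 of these 39 (5.13%), in 0.47% of all 27025 genes and in 3.23% of 31 intracellular hepatocyte genes. TATAAA, the TATA box, was in 23.1% of the 39, 15.7% of all and 38.7% of the intracellular hepatocyte genes, and CCAAT in 48.7%, 41.1% and 51.6%. None of the motifs is contained in another. The 2 genes with the HNF1 motif, Gc and F13b, are shown with the match in capitals. Itih2, the gene with the highest fold change, is shown beside them without capitals, since the HNF1 motif had no match in its window. Gc is on the minus strand at chr5:89457849-89458148, F13b on the plus strand at chr1:139501457-139501756 and Itih2 on the minus strand at chr2:10130634-10130933.
Gc: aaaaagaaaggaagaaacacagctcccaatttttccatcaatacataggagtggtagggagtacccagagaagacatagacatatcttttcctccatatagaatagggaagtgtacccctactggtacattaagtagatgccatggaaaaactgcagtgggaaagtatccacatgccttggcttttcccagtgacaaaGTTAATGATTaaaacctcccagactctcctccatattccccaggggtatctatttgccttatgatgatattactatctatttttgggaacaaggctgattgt
F13b: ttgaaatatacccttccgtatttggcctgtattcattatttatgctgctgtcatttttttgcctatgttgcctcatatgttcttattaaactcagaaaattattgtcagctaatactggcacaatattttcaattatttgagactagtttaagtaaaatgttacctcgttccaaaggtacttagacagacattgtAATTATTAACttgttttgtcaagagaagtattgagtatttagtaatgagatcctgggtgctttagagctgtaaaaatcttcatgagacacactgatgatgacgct
Itih2: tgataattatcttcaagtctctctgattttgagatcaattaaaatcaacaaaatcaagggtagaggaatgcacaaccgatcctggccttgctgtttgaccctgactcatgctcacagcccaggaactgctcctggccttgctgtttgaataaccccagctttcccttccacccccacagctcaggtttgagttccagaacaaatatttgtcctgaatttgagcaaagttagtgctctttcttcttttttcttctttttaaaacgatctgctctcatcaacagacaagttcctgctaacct
The match lies 52 bases before the start in Gc and 55 in F13b, where it reads on the opposite strand. Both genes were lower in aged ECs by their estimates, and none of the 5 Serpina1 genes held exactly these letters in the window. Forms of the HNF1 site that differ from this motif were not searched for.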

How the data were processed

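The authors called bases with CASAVA 1.8.2, mapped reads to mm9 with TopHat2 2.1.0 and deposited whole-number counts of reads in 24421 gene symbols and, from Cuffnorm 2.2.1, FPKM values for 24346. The counting program, its annotation and its use of strand are not given in the sources used here, so overlapping and antisense genes are uncertain. Here, genes with at least 0.5 CPM in at least 1 of the 6 samples were kept, normalized by TMM and compared between ages with edgeR 4.0.16 (quasi-likelihood test, R 4.3.3), with Benjamini-Hochberg adjustment over all 14612 genes. A call needed a log2 fold change beyond 1 and an adjusted p below 0.05. Standard errors were the fold change on the log2 scale over the square root of F. DESeq2 1.42.0 and limma 3.58.1 were alternatives, with pseudocounts of 0.1 and 1 on FPKM. Others changed the scaling or filter, left out each sample, or added a term for library kind, leukocyte RNA or hepatocyte RNA. For the ratio to the hepatocyte reference, 0.5 was added to each count. The fits were tested on simulated data.

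The genes and lists were chosen with earlier results of these data known. Named with values were the 5 genes with the highest young FPKM, the 5 with the smallest unadjusted p in each direction, genes whose ratio to the reference did not overlap or differed by at least 1, the Serpina1 genes, Alb and Plg. Further genes are named with their fold change to complete each role, and Serpind1, Gc and the genes that stood out in young replicate 3 were described after their values were seen. Gene positions are those of GENCODE vM1 on mm9, and promoters those of RefSeq on GRCm38.p6. Library totals of 23001556 to 31651817 limit precision, and the floor of 3 counts covers counting error only, since reads carry no molecular identifiers.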

Additional observations from a re-analysis of the deposited data

How the results depend on the processing

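The count of plasma protein genes lower in aged ECs stayed between 34 (of fewer genes, at CPM of at least 1 in at least 3 samples) and 42 (with a term for leukocyte RNA), and their median log2 fold change between -1.10 and -0.57. When each sample was left out in turn, 37 to 41 genes were lower, the median was -1.08 to -0.63, 0 genes passed the adjusted threshold and 22 to 30 did not overlap between the ages, where 23.2 to 34.5% of all genes did not. With all samples the count was 20 (17.9% of all genes), and 16 (17.3%) with total counts without TMM. Without TMM, Gc, Apob, Apoh, Fga, Fgg and Cpb2 overlapped, and Apoa2 and Ambp no longer did. Leaving out a sample makes overlap less likely for any gene. DESeq2 moved the number of genes past the threshold from 0 to 10, while the other alternatives gave 0; the cause was not tested. The number with a log2 fold change below -1 and an unadjusted p below 0.05 was 11 (1.19% of all genes), 6 (0.554%) with limma on log2(FPKM + 1), 7 (1.27%) with limma-voom and 9 to 18 (0.931 to 1.96%) with a sample left out. The number of genes whose ratio to the hepatocyte reference did not overlap was 6, 10 against the other plasma protein genes, 13 against Alb and 6 to 16 with a sample left out (43.6 to 80.3% of all genes), the 16 without young replicate 3. The median of these ratio differences, 0.058, was -0.45 against the other plasma protein genes, -0.40 against Alb and -0.29 to 0.51 with a sample left out. The sign of Trf turned to -0.16 with a term for leukocyte RNA, and with a term for hepatocyte RNA those of Apoa2, Apoc1, Apoc3, Apoc4 and Cpb2 to 0.061, 1.11, 0.55, 0.26 and 0.10. With the term for hepatocyte RNA 36 genes were lower and the median was -1.10. Serpind1, Plg, Ahsg and Kng1 moved down to -2.98, -2.20, -1.31 and -1.45, and Serpina1b and Rbp4 moved up to -0.61 and -0.41. Without young replicate 3, Serpina6, F12 and Itih1 turned to 0.15, 0.0035 and 0.096, Serpina6 without the 131-week sample to 0.087, and Proc with limma-voom to 0.076. With a sample left out Apoc1 ran from -0.72 to 0.20, the latter without young replicate 1, and F10 from -0.51, without the 136-week sample, to 0.56. The sign of F10 turned to -0.12 and -0.0074 on log2 FPKM with pseudocounts of 0.1 and 1, to -0.066 without young replicate 1 and to -1.06 with either term. The causes were not tested. No paired analysis was possible because only the young labels carry replicate numbers. Depth limits the genes near or under 1 CPM, among them F7, F9, F11, F13b and F10, and 3 samples per age limit all tests.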
